A study of Homo sapiens with 18 samples.

Results

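The transcriptional response of CARM1 knockout A1847 cells to tunicamycin was measured in 6 of the 18 libraries of the study. These are 3 libraries from knockout cells given tunicamycin and 3 from knockout cells given vehicle, and they were chosen by genotype and treatment alone. A1847 is a cell line from a high-grade serous ovarian carcinoma. CARM1 (PRMT4) is an enzyme that methylates arginines of histone H3 and of transcriptional coactivators. The knockout (koCARM1) was made with the lentiviral vector pLentiCRISPR v2, which carries Cas9 and a guide RNA, followed by puromycin selection, and the sources used here do not say whether the cells were a pool or a clone. The same treatments were given to control cells (WT in the labels, 3 libraries per treatment) and to cells with an shRNA against XBP1 (shXBP1, 3 per treatment). Tunicamycin was used at 5 µg/ml for 8 h. Only the 3′ ends of mRNAs were sequenced, so the spliced and unspliced forms of XBP1 mRNA were not told apart.

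Tunicamycin blocks the first step of N-glycan assembly, so that newly made glycoproteins misfold in the endoplasmic reticulum (ER). Misfolded protein is sensed by 3 proteins of the ER membrane. IRE1α (ERN1) splices XBP1 mRNA into the form that encodes the transcription factor XBP1s and also cleaves other mRNAs. PERK (EIF2AK3) slows translation and favours that of ATF4, which induces CHOP (DDIT3) and genes of amino acid supply. ATF6 is cut in the Golgi into a soluble transcription factor, and together these branches form the unfolded protein response (UPR).

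The knockout libraries held 9367462 to 13917212 counts with vehicle and 12845064 to 13811462 with tunicamycin. Replicates correlated at 0.987 to 0.989 across 17317 genes (Pearson's r of log2 CPM), and vehicle with tunicamycin libraries at 0.971 to 0.975. The study speaks in general of independent repeats, but neither the labels nor its RNA-seq methods say whether these replicates were separate cultures, and if they were not, the p-values measure only the spread between these libraries. The knockout libraries stood apart from all others: they correlated at 0.73 to 0.775 with the control and knockdown libraries, which correlated at 0.961 to 0.987 with each other. A total of 113 genes had at least 100 counts in every knockout library and at most 3 in every control and knockdown library, and 27 genes had the converse pattern, while 0 genes separated control from knockdown libraries in this way in either direction. PAX8, the lineage transcription factor of serous ovarian carcinoma, had 465 to 840 counts in the knockout libraries and 0 to 2 in the control libraries, and the keratin gene KRT7 had 3576 to 5166 and 0 to 12. The cyclin gene CCND2, chosen after its values were seen, had 1 to 91 counts in the knockout libraries and 14857 to 28219 in the control libraries. The ceiling of 3 counts left CCND2 out of the 27 genes, and also COL1A2, with up to 34 counts in a knockout library. Over 18 markers of ovarian carcinoma and epithelium, 5 of which were at 3 counts or fewer in every knockout library (SOX17, MUC16, EMX2, CDH6 and KRT19), the summed CPM was 2700 to 2790 in knockout cells with vehicle, 2270 to 2380 with tunicamycin, and 315 to 335 in control cells with vehicle. Over 12 fibroblast and mesenchyme markers it was 4390 to 4620, 4020 to 4200 and 1850 to 1920, over 7 leukocyte markers 10 to 11.2, 7.86 to 10.8 and 1.33 to 3.25, and over 3 endothelial markers at most 0.318 in any knockout library. Neither the epithelium nor the mesenchyme list was uniform. In the epithelium list, KRT18, KRT8 and KRT7 had the largest mean CPM in knockout cells with vehicle. They had 1482, 734.5 and 412 there and 260, 58.4 and 0.573 in control cells with vehicle. MECOM had 1.13 and 1.14, CDH6 0.128 and 0.434, and KRT19 0 and 0.745. The mesenchyme list also held members of both directions. With vehicle FN1 had a mean CPM of 2442 in knockout and 4.295 in control cells and VIM 1349 and 493, whereas COL1A2 had 0.247 and 823, COL3A1 0.0661 and 222, PDGFRA 0.0839 and 204, THY1 0.148 and 43.7, and ZEB1 35.6 and 73.1. The labels name 1 cell line for all libraries. Effects of the knockout and any other difference between the knockout cells and the control cells therefore cannot be told apart here, whereas the response to tunicamycin was compared within the knockout cells.

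CARM1 itself (chr19:10982229-11033751 in GRCh37) was read at the 3′ end of its transcript, which a small lesion made by a guide need not remove, so its level does not check the knockout. Its CPM (its counts scaled to the size of the library by TMM) was 73.5, 77.7 and 71.6 in knockout cells with vehicle and 76.2, 67.4 and 70.2 with tunicamycin. The values overlapped between treatments, with a log2 fold change of -0.03 (SE 0.06, edgeR adjusted p = 0.699). In control cells the CPM was 165, 162 and 160.0 with vehicle and 133, 139.9 and 134 with tunicamycin, above every knockout library.

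Short promoter elements are known through which UPR factors act on their targets. The windows searched here, from 250 bases before to 50 bases after the RefSeq gene start in GRCh38.p14, belong to 24 genes that the study assayed or that had the highest or lowest responses. DERL3, SLC7A11 and MYC also met this rule but are not among these 24. Of these, 18 held no exact match to any of 5 elements, DDIT3, TRIB3, DDIT4, SLC6A9, DNAJB9 and ERN1 among them, and the 6 that held one are shown. Capitals mark, in HSPA5 and XBP1, the ER stress response element, CCAAT and CCACG separated by 9 bases, to which NF-Y and ATF6 bind; in SDF2L1 and HERPUD1, its second form (ERSE-II), ATTGG and CCACG separated by 1 base; in DNAJC10, the core of the UPR element, TGACGTGG, to which XBP1s and ATF6 bind; and in CHAC1 and again in HERPUD1, the C/EBP-ATF response element, TGATGNAAN, to which ATF4 and C/EBP proteins bind. Both strands were searched, so that a match may read as the reverse complement.
HSPA5 (chr9:125241294-125241593, minus strand): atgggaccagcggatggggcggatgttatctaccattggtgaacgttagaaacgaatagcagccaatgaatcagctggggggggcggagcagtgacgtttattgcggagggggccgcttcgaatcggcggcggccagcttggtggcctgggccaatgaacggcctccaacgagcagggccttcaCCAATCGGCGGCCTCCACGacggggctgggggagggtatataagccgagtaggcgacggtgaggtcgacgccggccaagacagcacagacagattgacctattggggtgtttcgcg
XBP1 (chr22:28800520-28800819, minus strand): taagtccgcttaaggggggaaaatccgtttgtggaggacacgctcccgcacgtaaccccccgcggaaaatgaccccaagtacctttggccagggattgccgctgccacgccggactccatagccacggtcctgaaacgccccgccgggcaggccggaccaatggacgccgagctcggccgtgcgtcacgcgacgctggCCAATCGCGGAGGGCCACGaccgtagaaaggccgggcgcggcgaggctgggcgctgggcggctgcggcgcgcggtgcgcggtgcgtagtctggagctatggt
HERPUD1 (chr16:56931892-56932191, plus strand): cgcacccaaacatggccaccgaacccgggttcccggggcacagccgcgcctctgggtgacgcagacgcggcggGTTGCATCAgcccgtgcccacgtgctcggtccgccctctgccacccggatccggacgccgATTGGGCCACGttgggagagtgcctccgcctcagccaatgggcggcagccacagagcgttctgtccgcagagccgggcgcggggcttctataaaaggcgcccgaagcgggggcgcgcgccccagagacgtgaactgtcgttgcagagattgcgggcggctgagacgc
SDF2L1 (chr22:21642052-21642351, plus strand): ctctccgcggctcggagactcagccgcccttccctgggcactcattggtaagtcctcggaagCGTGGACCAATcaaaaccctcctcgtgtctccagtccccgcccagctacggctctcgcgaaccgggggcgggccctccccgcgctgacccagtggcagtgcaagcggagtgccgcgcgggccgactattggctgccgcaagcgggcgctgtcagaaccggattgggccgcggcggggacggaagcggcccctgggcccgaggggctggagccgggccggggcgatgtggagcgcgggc
DNAJC10 (chr2:182716007-182716306, plus strand): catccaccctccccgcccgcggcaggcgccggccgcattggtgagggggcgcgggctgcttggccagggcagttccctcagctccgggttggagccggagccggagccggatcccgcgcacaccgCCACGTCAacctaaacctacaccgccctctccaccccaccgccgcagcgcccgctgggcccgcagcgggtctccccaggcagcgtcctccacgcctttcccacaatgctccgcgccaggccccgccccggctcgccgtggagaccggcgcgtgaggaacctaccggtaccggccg
CHAC1 (chr15:40953221-40953520, plus strand): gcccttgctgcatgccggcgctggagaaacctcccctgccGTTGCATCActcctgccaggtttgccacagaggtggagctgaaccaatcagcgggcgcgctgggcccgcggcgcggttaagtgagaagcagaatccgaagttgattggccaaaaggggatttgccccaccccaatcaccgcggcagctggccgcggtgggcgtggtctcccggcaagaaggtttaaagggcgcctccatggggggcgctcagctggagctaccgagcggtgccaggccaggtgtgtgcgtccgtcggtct

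The ER stress response element was found in 22 of 27305 promoters (0.0806%), ERSE-II in 15 (0.0549%), the UPR element core in 217 (0.795%) and the C/EBP-ATF response element in 1002 (3.67%). Of 15458 genes tested in the knockout cells, 10942 had a promoter in the table. Among them 14 held the ER stress response element, and 12 of these 14 rose with tunicamycin and 0 fell. Of all 10942, 2725 rose and 2525 fell. The 12 were HSPA5, CRELD2, FICD, ERO1B, HSP90B1, XBP1, SERP1, TRIM5, CALR, CANX, EIF2A and ALG12, with log2 fold changes from 3.77 to 0.63, and the other 2 were ZNF17 and TMEM120A. Of 10 with ERSE-II, 7 rose, led by HERPUD1 at 4.69, SDF2L1 at 3.67 and HYOU1 at 3.07, and 3 fell by 0.30 to 0.52 (PLS3, ZNF143 and GYS1). The C/EBP-ATF response element was in 1.69% of the promoters of all genes tested, in 2.28% of those of genes that rose, in 6.8% of those that rose at least 2-fold and in 10.7% of those that rose at least 4-fold. For the UPR element core the shares were 0.923%, 1.65%, 3.4% and 2.38%, the last from 2 genes. The cAMP response element, TGACGTCA, was in 3.24%, 3.63%, 1.94% and 1.19%. Promoters of genes that fell at least 2-fold held 0 matches to the ER stress response element, ERSE-II and the UPR element core among 226. Over all genes tested the shares were 0.128%, 0.0914% and 0.923%, so that few or no matches among 226 would be seen at these shares.

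**Figure D1:**
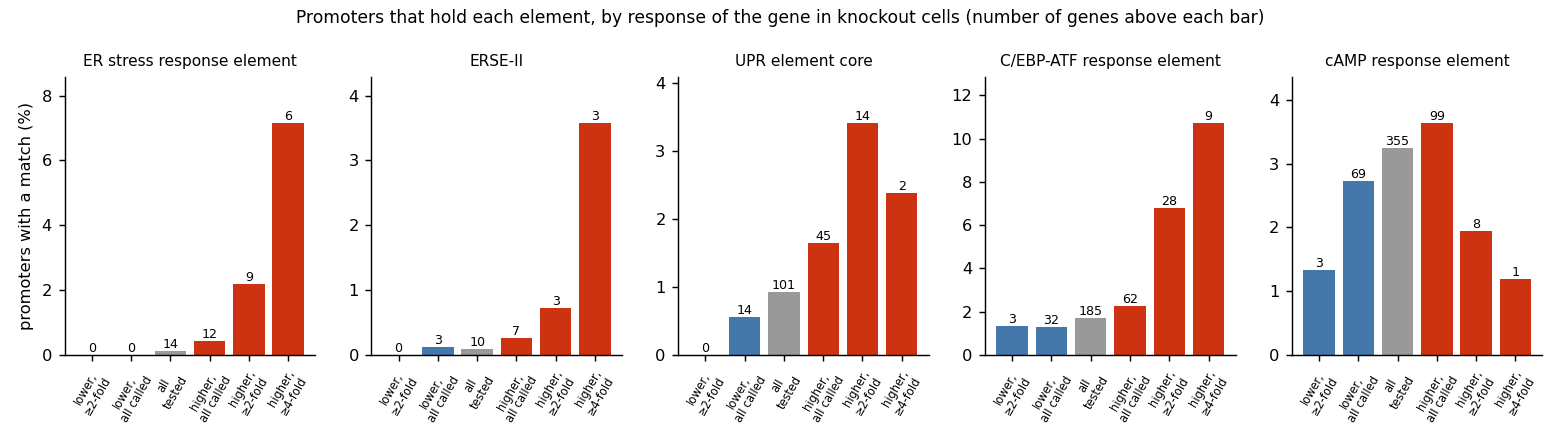
Share of promoter windows (%) with an exact match to each of 5 elements, for genes grouped by their response to tunicamycin in knockout cells, with the number of matching genes above each bar and a separate vertical scale in each panel. The ER stress response element is in 14 of 10942 promoters (0.128%) among all genes tested and in 6 of 84 (7.14%) among those at least 4-fold higher. It is in 0 of 226 among those at least 2-fold lower.

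Of 15458 genes tested in the knockout cells, 3547 (22.9%) were higher and 3331 (21.5%) lower with tunicamycin at a false discovery rate of 5% (edgeR quasi-likelihood test). Scaling by library totals alone gave 2882 higher and 4101 lower, and 1 fit of all 18 libraries 2730 and 3266. In bulk RNA, less RNA per cell and fewer cells that express a gene cannot be told apart. The change was at least 2-fold for 593 of the higher and 351 of the lower genes, and the median over all genes was -0.002 on the log2 scale. Where the mean level reached 3 log2 CPM and the replicates did not overlap, the 10 highest responses were those of DDIT3, TRIB3, HERPUD1, DDIT4, DERL3, CHAC1, HSPA5, SLC6A9, SDF2L1 and SLC7A11, between 5.02 and 3.48 on the log2 scale. The 10 lowest were those of EDN1, HSPA1A, MLLT11, PLPP3, LINP1, CD59, MAP1A, ID1, SKP2 and SOCS3, between -2.76 and -1.80.

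**Figure D2:**
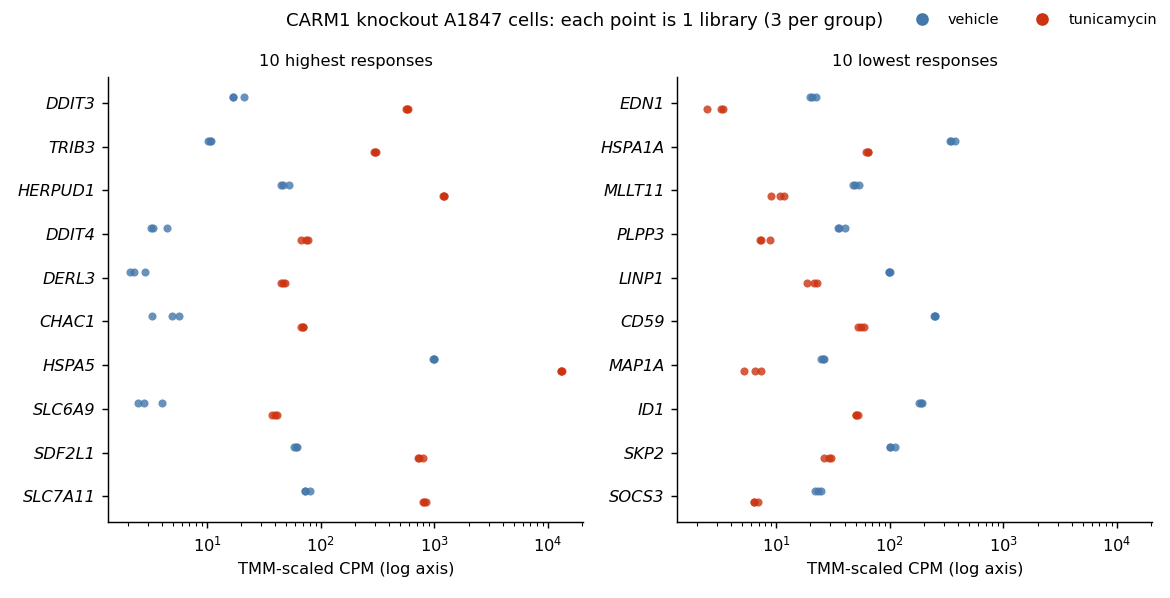
TMM-scaled CPM on a log axis of the 10 genes with the highest (left) and the 10 with the lowest (right) responses in knockout cells, 1 point per library, vehicle in blue and tunicamycin in red. The genes were chosen so that the 3 tunicamycin libraries lie apart from the 3 vehicle libraries, and their responses run from 5.02 on the log2 scale for DDIT3 to -2.76 for EDN1.

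HSPA5 encodes BiP, the main chaperone of the ER lumen and the protein that holds the UPR sensors inactive. Its CPM in knockout cells was 987, 983 and 982 with vehicle and 13038, 13021 and 13216 with tunicamycin. The fitted change was 13.6-fold, or a log2 fold change of 3.77 (SE 0.03, edgeR adjusted p = 1.38e-26). Of 17 ER lumen chaperones tested, 16 rose and 1 fell, beside 22.9% and 21.5% of all genes tested. The group's median was 1.18. SDF2L1, a partner of BiP in an ER chaperone complex, went from 62.1, 60.4 and 58.3 CPM to 797, 737 and 725, or 3.67 (SE 0.05, edgeR adjusted p = 1.27e-22) on the log2 scale. MANF, a secreted ER protein that binds BiP, went from 189, 194 and 194 to 1712, 1580.0 and 1587, or 3.11 (SE 0.04, edgeR adjusted p = 9.85e-23). HYOU1, the ER nucleotide exchange factor GRP170, rose by 3.07. The member that fell was SERPINH1, the collagen chaperone HSP47, from 142, 111 and 139.6 CPM to 118, 90.9 and 89.1, or -0.37 (SE 0.09, edgeR adjusted p = 0.00217), a call that DESeq2 did not make.

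J-domain proteins recruit BiP to its clients. Of 10 tested in the ER, 9 rose and 0 fell, beside 22.9% and 21.5% of all genes tested. DNAJB14 was not called (0.08, edgeR adjusted p = 0.376). DNAJB9 (ERdj4), which recruits BiP to IRE1α, had a CPM of 4.97, 3.94 and 4.24 with vehicle and 47.5, 45.9 and 48.5 with tunicamycin, a log2 fold change of 3.45 (SE 0.10, edgeR adjusted p = 3.44e-16). DNAJC10 (ERdj5), a disulfide reductase of the ER, went from 86.4, 85.6 and 80.7 to 229, 218 and 225, or 1.44 (SE 0.04, edgeR adjusted p = 1.68e-16). DNAJC3 rose by 2.56 and DNAJB11 by 1.70. Among 20 protein disulfide isomerases and oxidases, which form and rearrange disulfide bonds in the ER, 15 rose and 1 fell (TMX1, -0.16, with an edgeR adjusted p of up to 0.0859 without vehicle replicate 2 or tunicamycin replicate 1). PDIA4 rose most of those named, from 60.7, 51.4 and 50.1 CPM to 368, 329 and 313, or 2.66 (SE 0.06, edgeR adjusted p = 7.99e-18), and ERO1B, which reoxidises the isomerases, rose by 2.40.

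ER-associated degradation (ERAD) returns misfolded proteins to the cytosol for the proteasome. Of its 30 genes, 19 rose and 2 fell, beside 22.9% and 21.5% of all genes tested. The group's median was 0.22. At the top stood HERPUD1, a scaffold of the ERAD ligase, whose CPM went from 44.4, 52.7 and 46.4 to 1193, 1221 and 1212, a log2 fold change of 4.69 (SE 0.05, edgeR adjusted p = 5.97e-24). DERL3, a Derlin of the channel back to the cytosol, went from 2.1, 2.85 and 2.29 to 48.1, 46.6 and 44.8, or 4.29 (SE 0.12, edgeR adjusted p = 7.53e-17). SEL1L and SYVN1 (HRD1), the core of the main ERAD ligase, rose by 2.54 and 2.46. Among the members that fell, TMUB1 gave -0.45.

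Among 11 UPR sensors and ER-bound transcription factors, 7 rose and 1 fell, beside 22.9% and 21.5% of all genes tested. The group's median was 0.29. XBP1 mRNA, both forms together, had a CPM of 30.4, 41.4 and 30.0 with vehicle and 140.5, 145 and 144 with tunicamycin, a log2 fold change of 2.10 (SE 0.08, edgeR adjusted p = 4.89e-15). EIF2AK3 (PERK) went from 8.62, 7.8 and 8.93 to 32.8, 28.2 and 30.7, or 1.89 (SE 0.10, edgeR adjusted p = 5.42e-12). ERN1 (IRE1α) went from 12.9, 11.9 and 12.7 to 24.2, 28.6 and 25.5, or 1.10 (SE 0.10, edgeR adjusted p = 1.45e-08). ATF6 rose by 1.09. CREB3L1 (OASIS), an ER-bound relative of ATF6 that drives collagen secretion, fell from 104, 105 and 101 CPM to 50.2, 52.9 and 48.2, or -1.0045 (SE 0.05, edgeR adjusted p = 1.59e-12). Its relatives CREB3L2, CREB3L4 and CREB3 rose by 0.29, 1.61 and 0.26. The proteases that cut ATF6, MBTPS1 and MBTPS2, gave 0.07 and 0.29, and ATF6B gave 0.19, and these 3 were not called, although ATF6B was without vehicle replicate 1 or tunicamycin replicate 3 and MBTPS2 without vehicle replicate 3 (lowest edgeR adjusted p 0.0231 and 0.036).

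The ATF4 and CHOP branch had the highest median of all groups, 1.88. Of its 19 tested genes 14 rose and 2 fell, beside 22.9% and 21.5% of all genes tested. DDIT3, which encodes the stress transcription factor CHOP, had a CPM of 16.9, 17 and 21.1 with vehicle and 558, 575 and 585 with tunicamycin, a log2 fold change of 5.02 (SE 0.06, edgeR adjusted p = 5.57e-23), the highest of the 10 above. TRIB3, a pseudokinase that CHOP and ATF4 induce, went from 10.1, 10.6 and 10.9 to 298, 297 and 309, or 4.88 (SE 0.06, edgeR adjusted p = 5.57e-23). DDIT4 (REDD1), an inhibitor of mTORC1, went from 3.19, 4.44 and 3.32 to 74.3, 67.7 and 77, or 4.34 (SE 0.11, edgeR adjusted p = 1.05e-17). CHAC1, which degrades glutathione, rose by 3.95. ATF4 mRNA, which is outside the rule for named genes and is given as the branch's own factor, rose by 1.31 from 548, 556 and 532 CPM to 1297, 1324 and 1341. EIF2AK2 and EIF2AK4, eIF2α kinases that answer double-stranded RNA and amino acid lack, were the members that fell, by 0.23 and 0.33. ATF5, a target of ATF4, was not called (-0.16, edgeR adjusted p = 0.126).

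Genes of amino acid supply, many of them known ATF4 targets, rose in most cases. Among all genes tested 22.9% rose and 21.5% fell. Of 12 amino acid transporters tested, 10 rose and 1 fell (SLC7A6, -0.34). SLC7A11, the cystine importer, had a CPM of 72.5, 72.3 and 79.9 with vehicle and 790.2, 812 and 842 with tunicamycin, a log2 fold change of 3.48 (SE 0.04, edgeR adjusted p = 1.7e-22). SLC6A9, a glycine transporter, went from 2.49, 2.77 and 4.01 to 39.4, 41.3 and 37.1, or 3.74 (SE 0.13, edgeR adjusted p = 3.02e-15). SLC3A2, the shared heavy chain of several transporters, rose by 2.32. Of 20 cytosolic tRNA synthetases, 17 rose, 0 fell and the median was 1.02, led by AARS1 (1.94), WARS1 (1.90), GARS1 (1.86) and CARS1 (1.60). Among 11 serine and one-carbon enzymes 7 rose and 1 fell (SHMT1, -0.32). The mitochondrial folate enzyme ALDH1L2 had a CPM of 7.84, 7.71 and 5.95 with vehicle and 71.5, 72 and 71.9 with tunicamycin, or 3.33 (SE 0.09, edgeR adjusted p = 2.56e-17), and PSPH and PSAT1 of serine synthesis rose by 2.52 and 1.99. Among 11 other enzymes of amino acid synthesis 9 rose and 0 fell. CTH, which makes cysteine, rose by 3.47, ASNS, which makes asparagine, by 2.68, and the transaminase GOT1 by 2.12.

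Genes for entry into and exit from the ER also rose for the greater part. Of 25 translocation genes 20 rose and 2 fell, beside 22.9% and 21.5% of all genes tested. The group's median was 0.60. SERP1, which stabilises the translocon under stress, went from 115, 115 and 111 CPM to 329, 332 and 320.0, or 1.56 (SE 0.04, edgeR adjusted p = 7.78e-18). SEC61A1, the channel itself, rose by 1.5043, whereas TRAM2 fell from 108, 111 and 106 CPM to 62.9, 60.2 and 57.1, or -0.82 (SE 0.05, edgeR adjusted p = 2.73e-11). The other member that fell was SRP14 (-0.14), with an edgeR adjusted p of up to 0.121 without vehicle replicate 1 or tunicamycin replicate 1. Of 33 genes of the COPII coat and its cargo receptors, which carry proteins to the Golgi, 22 rose and 3 fell, with a median of 0.52. The coat subunit SEC24D went from 17, 18.3 and 13.2 to 90.8, 87.9 and 87.2, or 2.47 (SE 0.08, edgeR adjusted p = 6.41e-16), and BET1 and SEC23B rose by 1.69 and 1.40. The lowest member was ERGIC1 at -0.53.

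N-glycan assembly is the pathway that tunicamycin blocks, at DPAGT1. DPAGT1 itself went from 32.1, 37.3 and 37.3 CPM to 54.9, 52.5 and 57.1, or 0.66 (SE 0.07, edgeR adjusted p = 1.59e-07). Of 34 genes of assembly and glycan-based quality control, 19 rose and 4 fell, with a median of 0.20. Over all genes tested 22.9% rose and 21.5% fell. OSTC, a subunit of the oligosaccharyltransferase, rose by 1.32 and the mannosyltransferase ALG2 by 1.19. DOLK, which makes dolichol phosphate, and the glucosidase subunit PRKCSH fell by 0.57 and 0.47. Upstream, 4 of 6 genes of the hexosamine pathway, which makes the UDP-GlcNAc that DPAGT1 uses, rose. Its rate-limiting enzyme GFPT1 went from 60.5, 63.9 and 58.2 CPM to 294, 287 and 298, or 2.30 (SE 0.04, edgeR adjusted p = 1.44e-19), and PGM3, UAP1 and GNPNAT1 rose by 1.27, 1.11 and 0.50. GFPT2 was called lower (-0.47, edgeR adjusted p = 0.0477), but not without vehicle replicate 2 or 3 or tunicamycin replicate 1 or 3 (up to 0.178), and UAP1L1 was not called (-0.34).

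**Figure D3:**
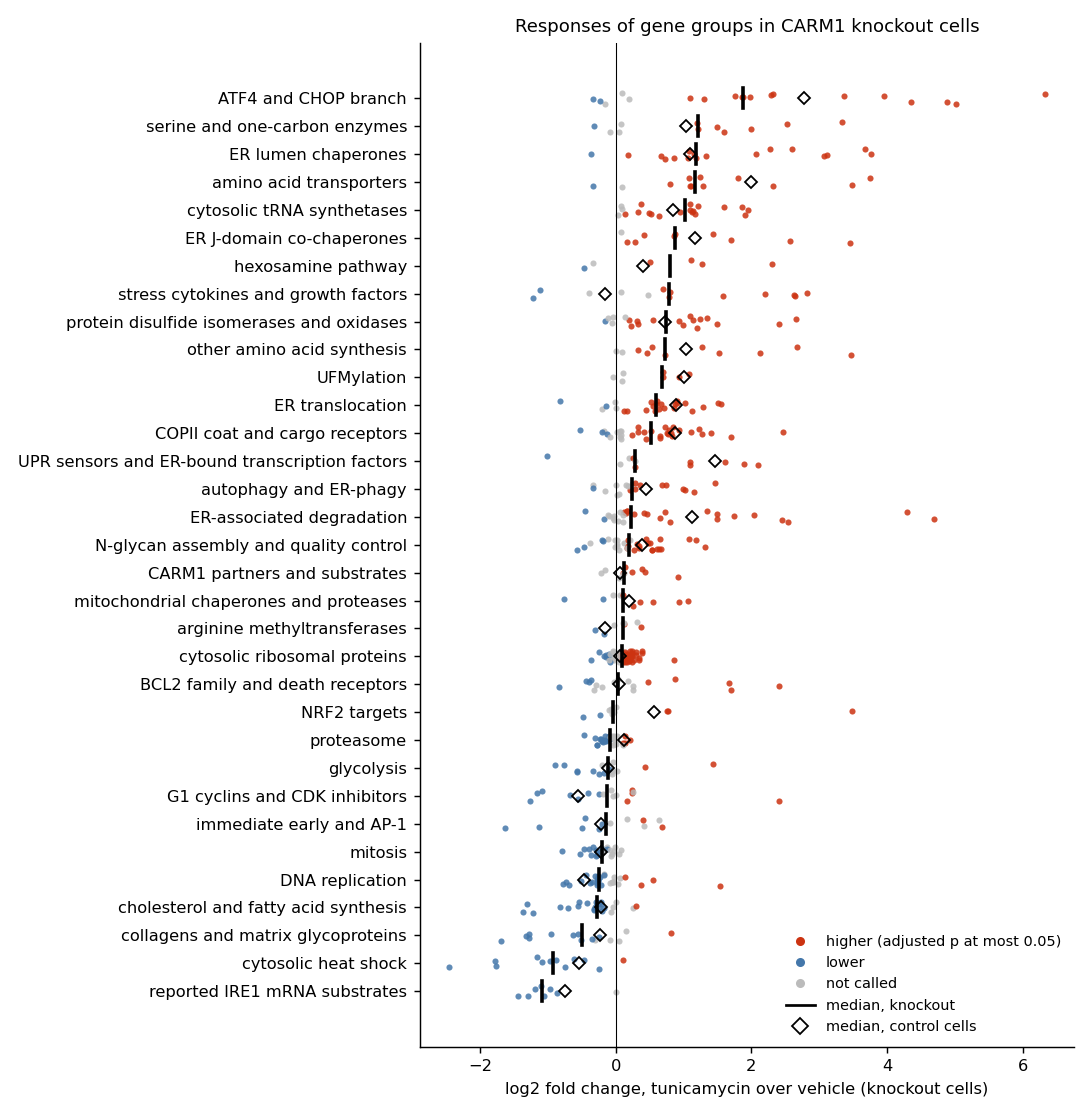
Log2 fold changes with tunicamycin in knockout cells of the genes in each of 33 groups, 1 point per gene, coloured by call (red higher, blue lower, grey not called), with the group's median in knockout cells as a bar and in control cells as an open diamond. Medians run from 1.88 for the ATF4 and CHOP branch to -1.08 for reported IRE1 mRNA substrates.

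Genes of the cytosolic heat shock response moved the other way. Of 12 tested, 11 fell, 1 rose (HSPA4, 0.11, edgeR adjusted p = 0.0363, but up to 0.197 without vehicle replicate 1 or 2 or tunicamycin replicate 2 or 3) and the median was -0.92, beside 21.5% of all genes that fell. HSPA8, the constitutive cytosolic HSP70, had a CPM of 1525, 1561 and 1527 with vehicle and 456, 436 and 442 with tunicamycin, a log2 fold change of -1.76 (SE 0.03, edgeR adjusted p = 3.77e-20). HSPA1A, the stress-inducible HSP70, went from 337, 379 and 349 to 64.4, 64.2 and 61.9, or -2.45 (SE 0.05, edgeR adjusted p = 2.02e-19). HSPA1A and HSPA1B are near-identical copies, and reads may have been split between them. The decline in HSPA1B from 95.8, 96.8 and 89.3 CPM to 26.9, 26.8 and 26.5 was -1.78. HSP90AA1, the inducible cytosolic HSP90, fell from 12060.0, 12448 and 12382 CPM to 6972, 7248 and 7303, or -0.74 (SE 0.03, edgeR adjusted p = 2.4e-15), and the co-chaperones DNAJA1, HSPH1 and DNAJB1 fell by 1.16, 1.09 and 0.88.

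IRE1α cleaves some mRNAs directly, and 8 mRNAs that have been reported as substrates were examined. Of these 7 fell and 0 rose, beside 21.5% and 22.9% of all genes tested. The group's median was -1.08, and HGSNAT was not called (0.01, edgeR adjusted p = 0.955). BLOC1S1, the substrate used most often as a readout, had a CPM of 44, 55.9 and 52 with vehicle and 22.9, 21 and 20.8 with tunicamycin, a log2 fold change of -1.19 (SE 0.09, edgeR adjusted p = 7.14e-10). TGOLN2, a trans-Golgi protein, went from 201, 211 and 201 to 70.3, 77.4 and 72.2, or -1.44 (SE 0.05, edgeR adjusted p = 5.52e-16). SPARC, a secreted matrix protein, went from 320.5, 302 and 298 to 121, 121 and 126, or -1.29 (SE 0.04, edgeR adjusted p = 4.89e-16). SCARA3, PMP22, PDGFRB and COL6A1 fell by 1.09, 1.06, 0.97 and 0.87. Cleavage was not measured, so loss by cleavage and less transcription cannot be told apart.

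Other secreted and surface proteins were among the lowest responses. EDN1 (endothelin-1) had a CPM of 22.5, 20.6 and 20.04 with vehicle and 3.43, 2.46 and 3.26 with tunicamycin, a log2 fold change of -2.76 (SE 0.14, edgeR adjusted p = 1.41e-12). CD59, a membrane inhibitor of complement, went from 251, 250.2 and 245 to 56.1, 52.9 and 59, or -2.12 (SE 0.04, edgeR adjusted p = 1.09e-18). PLPP3, a lipid phosphatase of the cell surface, went from 35.8, 34.8 and 40.2 to 8.84, 7.3 and 7.15, or -2.21 (SE 0.11, edgeR adjusted p = 6.2e-13). Of 15 collagens and matrix glycoproteins 10 fell and 1 rose, beside 21.5% and 22.9% of all genes tested. The group's median was -0.50. THBS1 (thrombospondin-1) fell by 1.69, from 271, 257 and 266 CPM to 81.1, 73.6 and 85.4, and COL4A1 by 1.32. EDN1, HSPA1A, PLPP3, LINP1 and THBS1 had at most 4, 14, 3, 1 and 12 counts in any control library, so that no response of these genes could be compared with one in control cells. LINP1, a long noncoding RNA of DNA end joining, had a CPM of 99.7, 97.6 and 99 with vehicle and 18.9, 22.7 and 21.5 with tunicamycin. The regulators ID1, SOCS3 and SKP2 fell by 1.84, 1.80 and 1.83. MLLT11 and the microtubule-associated gene MAP1A fell by 2.22 and 1.97.

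In each group of cell cycle genes more members were called lower than higher, and some were not called. CCND1 (cyclin D1) had a CPM of 834, 808 and 845 with vehicle and 335, 338 and 342 with tunicamycin, a log2 fold change of -1.26 (SE 0.03, edgeR adjusted p = 2.63e-17). Over all genes tested 21.5% fell and 22.9% rose. Among 16 G1 cyclins and CDK inhibitors 7 fell and 4 rose, the number that rose being close to that share. Among 30 DNA replication genes 18 fell and 4 rose (median -0.24), and among 22 mitosis genes 13 fell and 0 rose (median -0.20). The replication licensing factor CDC6 went against its group, from 76.5, 79.5 and 70.7 CPM to 215, 217 and 211, or 1.53 (SE 0.04, edgeR adjusted p = 1.47e-16). SKP2, which marks the CDK inhibitor p27 for degradation, went from 100.5, 110.2 and 101 to 30.6, 29.1 and 26.4, and CDKN1B, the gene of p27, rose by 0.24. Of 24 genes of cholesterol and fatty acid synthesis 19 fell and 1 rose, with a median of -0.28. INSIG1, a target of SREBP2, fell by 1.37, and the member that rose was SREBF1 (0.29, edgeR adjusted p = 0.0413, but up to 0.123 without any 1 vehicle library or tunicamycin replicate 2 or 3).

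Of 17 BCL2 family members and death receptors 5 rose and 4 fell, close to the 22.9% and 21.5% of all genes tested, with a median of 0.04. BBC3 (PUMA), an activator of apoptosis, had a CPM of 6.21, 6.96 and 6.87 with vehicle and 34.7, 32.9 and 35.8 with tunicamycin, a log2 fold change of 2.40 (SE 0.10, edgeR adjusted p = 6.42e-14). TNFRSF10B (the death receptor DR5), a CHOP target, went from 25.6, 26.2 and 29.1 to 82, 84.4 and 88.4, or 1.70 (SE 0.06, edgeR adjusted p = 1.27e-14). Of 13 stress cytokines and growth factors 8 rose and 2 fell, beside the same 22.9% and 21.5% of all genes tested. VEGFA went from 4.82, 5.37 and 5.61 CPM to 37.3, 36.9 and 33.6, or 2.81 (SE 0.11, edgeR adjusted p = 1.39e-14), and the EGF receptor ligand AREG rose by 2.20, while HBEGF and IL11 fell by 1.12 and 1.22. Of 12 immediate early and AP-1 genes 6 fell and 2 rose, beside 21.5% and 22.9% of all genes tested. Those that fell were led by FOS at -1.63 and FOSL2 at -1.13, and those that rose were EGR1 at 0.68 and MAFF at 0.41. MYC rose from 15.9, 12.4 and 12 CPM to 26, 22.3 and 27.3, or 0.92 (SE 0.11, edgeR adjusted p = 1.12e-06).

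The remaining groups moved little or in part. Of 11 mitochondrial chaperones and proteases 6 rose and 2 fell, beside 22.9% and 21.5% of all genes tested. HSPA9 (mortalin) went from 172, 163 and 168 CPM to 334, 351 and 345, or 1.06 (SE 0.04, edgeR adjusted p = 4.64e-15), while HSPE1, the mitochondrial HSP10, fell by 0.76 and CLPX by 0.19, the latter with an edgeR adjusted p of up to 0.156 without vehicle replicate 1 or 2 or tunicamycin replicate 2. In UFMylation, which acts on ribosomes at the ER, 4 of 7 rose and 0 fell, with UFL1, UFM1 and CDK5RAP3 higher by 1.08, 0.93 and 0.69. Of 19 autophagy and ER-phagy genes 10 rose and 1 fell (TEX264, -0.34, with an edgeR adjusted p of up to 0.0865 without vehicle replicate 1 or 3 or tunicamycin replicate 1 or 3). MAP1LC3B, the gene of the autophagosome protein LC3B, went from 91.9, 94.3 and 80.6 to 236, 241 and 244, or 1.46 (SE 0.05, edgeR adjusted p = 7.87e-16). Of 10 NRF2 targets 3 rose and 2 fell, again close to the shares of all genes (22.9% and 21.5%), and SLC7A11, which is also an ATF4 target, was by far the highest of them. HMOX1 went from 9.48, 9.98 and 7.44 CPM to 5.83, 6.11 and 6.99, or -0.49 (SE 0.15, edgeR adjusted p = 0.0116), a call lost without vehicle replicate 2 (edgeR adjusted p = 0.0603). Of 30 proteasome genes 15 fell and 4 rose, with a median of -0.08 and a lowest value of -0.47 (PSMB5). Of 73 cytosolic ribosomal proteins 40 rose and 9 fell, with a median of 0.09, and this balance moved to 25 and 14 when libraries were scaled by their totals alone. Of 17 glycolysis genes 8 fell and 2 rose (HK2 and PFKL), of 8 arginine methyltransferases 2 rose and 2 fell, likewise close to those shares, and of 11 reported partners and substrates of CARM1 6 rose and 0 fell. Of these partners, EP300 and SMARCC1 each lost their call in 5 of 14 alternatives. With 1 library left out, their edgeR adjusted p went up to 0.152 and 0.0632. Among the methyltransferases, PRMT5 rose by 0.37, PRMT2 fell by 0.18, and PRMT1 and PRMT7 were called at 0.12 and -0.31. The call on PRMT1 was lost without vehicle replicate 2 or tunicamycin replicate 1, and that on PRMT7 without vehicle replicate 1 or 2 or tunicamycin replicate 1 or 2 (edgeR adjusted p up to 0.132 and 0.258).

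The response of the control cells was used to show where that of the knockout cells differed. In control cells 3671 of 14955 genes (24.5%) rose and 3571 (23.9%) fell, 952 and 690 of them at least 2-fold, against 593 and 351 in the knockout cells. Scaling the control libraries by their totals alone gave 3038 higher and 4326 lower. Of 13630 genes tested in both, 2080 rose in both, which is 62.8% of those that rose in the knockout cells and 59.7% of those that rose in the control cells. A total of 1726 fell in both, 58.8% of those that fell in the knockout cells and 51.4% in the control cells. Across these genes the log2 fold changes correlated at 0.604 (Pearson's r, a description over genes, which are not replicates). A further 1828 genes were tested in the knockout cells alone, of which 236 rose and 397 fell.

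The difference between the responses, knockout minus control, was tested as an interaction term over 16956 genes. It was above 0 for 1873 genes (11%) and below 0 for 2124 (12.5%). Which direction had more calls was not stable. The share above 0 was 46.9% of the calls, 44.5% to 46.8% when any single knockout library was left out, 56.4% to 59.3% when any single control library was left out, 57.7% with no filter on low counts, 57% with at least 10 counts required in every library, 54.6% with library totals alone and 48.7% with TMM factors computed within each genotype. Against the knockdown cells the difference was above 0 for 1703 of 16916 genes (10.1%) and below 0 for 1954 (11.6%), and this balance was not stable either. The share above 0 went from 46.6% to 53.1% with library totals alone, 54.9% with TMM factors within each genotype, 57.7% with no filter, 56.1% with at least 10 counts in every library, and 55.9% or 55.6% without knockdown vehicle replicate 2 or 3.

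**Figure D4:**
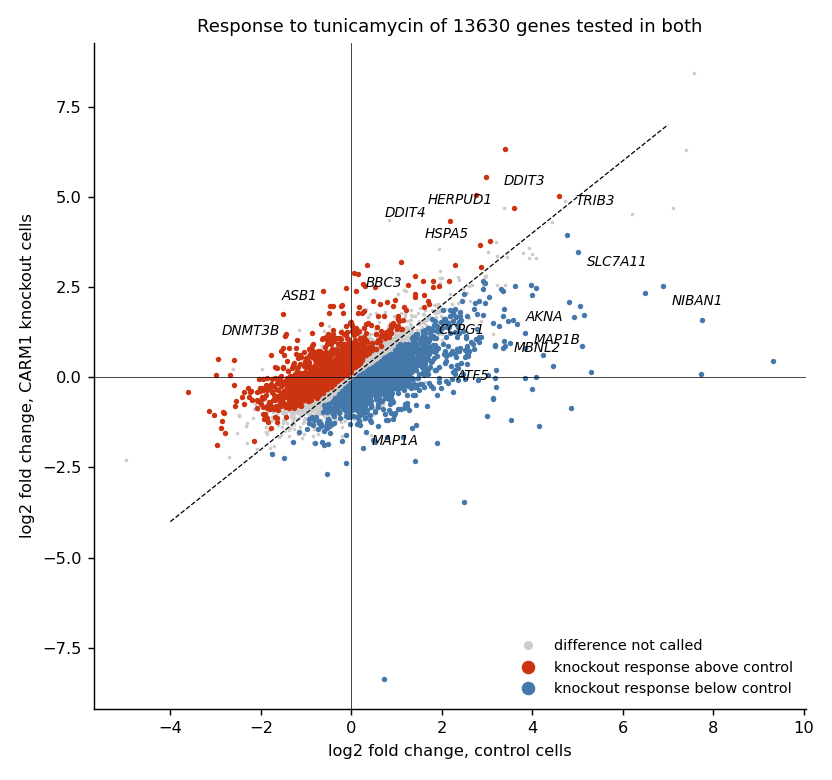
Log2 fold change with tunicamycin in control cells (horizontal) and in CARM1 knockout cells (vertical) of the 13630 genes tested in both, with genes whose difference was called above 0 in red, below 0 in blue and others in grey, and equality as a dashed line. DDIT3, TRIB3 and HERPUD1 rose strongly in both, while NIBAN1 and MAP1B lie far below the line and ASB1, DNMT3B and DDIT4 above it.

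For several gene groups most of the called differences lay in 1 direction. Among all genes tested against control, 11% were called above 0 and 12.5% below. Of 30 ERAD genes 18 lay below 0 and 1 above, and the median response was 0.22 in knockout and 1.13 in control cells. Of 33 COPII genes 18 lay below and 1 above (medians 0.52 and 0.87), of 25 translocation genes 16 and 1 (0.60 and 0.89), of 34 N-glycan genes 13 and 0 (0.20 and 0.39), and of 30 proteasome genes 19 and 0 (-0.08 and 0.13). The knockdown cells had medians of 0.54, 0.54 and 0.24 for COPII, translocation and N-glycan genes. Against them 11.6% of all genes tested lay below 0 and 10.1% above. Of the COPII genes 6 lay below and 5 above, of the translocation genes 5 and 7, and of the N-glycan genes 7 and 5. For ERAD genes it was 12 below and 3 above (knockdown median 0.74), and for proteasome genes 14 and 0 (0.02). SEL1L rose by 2.54 in knockout and 3.62 in control cells, a difference of -1.10 (SE 0.08, edgeR adjusted p = 7.14e-09), and SEC24D rose by 2.47 and 4.09, a difference of -1.64 (SE 0.13, edgeR adjusted p = 2.01e-08). The ER lumen chaperones were divided, with 8 above 0 and 5 below and medians of 1.18 and 1.10. The response of HSPA5 was higher in knockout cells by 0.68 (SE 0.04, edgeR adjusted p = 9.38e-10), with control CPM of 1282, 1304 and 1245 for vehicle and 10834, 10495 and 10726 for tunicamycin. DNA replication genes had 14 above 0 and 0 below, with medians of -0.24 in knockout and -0.46 in control cells. The list of direct targets of XBP1s and CARM1 in the study was chosen on these samples, so its direction is no independent evidence. Of its 362 members tested, 240 rose and 20 fell in the knockout cells, and the difference lay below 0 for 326 and above 0 for 2.

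Among the genes that the study assayed itself, HSPA5, DDIT3, XBP1 and MYC responded more strongly in knockout cells and DNAJC10 less. From RT-qPCR the study reports that CARM1 knockout suppressed the tunicamycin induction of its target genes, such as HSPA5 and DNAJB9. The difference for HSPA5 in these libraries, 0.68, lay the other way, and the reason was not tested. The difference was 0.40 (SE 0.12, edgeR adjusted p = 0.0163) for DDIT3 and 0.37 (SE 0.12, edgeR adjusted p = 0.0297) for XBP1, and these calls were lost for DDIT3 without knockout vehicle replicate 1 or 2 (edgeR adjusted p up to 0.0741) and for XBP1 without knockout vehicle replicate 1 or 3 or tunicamycin replicate 2 or 3 (up to 0.138). For MYC it was 0.75 (SE 0.16, edgeR adjusted p = 0.00182), and for DNAJC10 -0.41 (SE 0.08, edgeR adjusted p = 0.000453). For DNAJB9, ERN1 and HSPA9 it was -0.37, -0.39 and 0.04 and was not called, although that of ERN1 was without control vehicle replicate 2 (edgeR adjusted p = 0.0304).

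Where the mean level reached 3 log2 CPM in both genotypes, the largest differences below 0 were those of NIBAN1, MAP1B, MBNL2, CCPG1, ATF5, MAP1A, AKNA, PRKCZ, LRP1 and ZFAND2A. NIBAN1 (chr1:184759858-184943640 in GRCh37), a stress-induced gene, had a CPM of 60.5, 60.1 and 56.6 in knockout cells with vehicle and 319, 342 and 332 with tunicamycin, and of 2.79, 3.61 and 2.95 and 371, 358 and 373 in control cells. It reached similar levels with tunicamycin, but stood higher with vehicle in the knockout cells, and its difference was -4.38 (SE 0.10, edgeR adjusted p = 1.17e-16). MAP1B, a microtubule-associated gene, stood higher in knockout cells with either treatment, with 959, 913 and 918 and then 1583, 1629 and 1618 in knockout cells, 29.6, 35.8 and 30.5 and then 479, 424 and 466 in control cells, and a difference of -3.03 (SE 0.08, edgeR adjusted p = 8.59e-16). ATF5 did not: its CPM was 56.4, 47.3 and 58.4 with vehicle and 52.5, 46.7 and 42.1 with tunicamycin in knockout cells, and 90.5, 97.2 and 93.2 and 359, 463 and 419 in control cells, where it rose, for a difference of -2.33 (SE 0.13, edgeR adjusted p = 1.33e-10). CCPG1, an ER-phagy receptor, rose in both, from 29.4, 24.4 and 30.9 CPM to 54.6, 54.4 and 55.6 in knockout and from 15.2, 12.7 and 12.8 to 158, 128 and 134 in control cells, a difference of -2.39 (SE 0.14, edgeR adjusted p = 1.64e-10). MBNL2, AKNA, PRKCZ and ZFAND2A rose in both genotypes with differences of -2.56, -2.22, -2.12 and -1.90, whereas MAP1A (-2.25) and LRP1 (-2.05) fell in knockout and rose in control cells. The differences of these 10 from the knockdown cells, in a comparison that shares the knockout libraries, ran from -5.35 for NIBAN1 to -1.51 for ZFAND2A.

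With the same minimum level, the largest differences above 0 were those of ASB1, BBC3, DNMT3B, DDIT4, KCNJ4, HES6, NRARP, CDC42EP3, ELK3 and SDC1. ASB1 (chr2:239335383-239360891 in GRCh37), a subunit of a ubiquitin ligase, had like levels with vehicle, 36.7, 35.2 and 35.7 in knockout and 40.8, 34.4 and 33.5 in control cells. With tunicamycin it went to 142, 142 and 135 in knockout and 27.2, 26.9 and 27.4 in control cells, a difference of 2.38 (SE 0.10, edgeR adjusted p = 2.02e-12). BBC3 was low in knockout cells with vehicle (6.21, 6.96 and 6.87) and nearer to the control level with tunicamycin (34.7, 32.9 and 35.8), while control cells had 42.6, 46.4 and 42.2 with vehicle and 49, 45.1 and 47.5 with tunicamycin, for a difference of 2.27 (SE 0.12, edgeR adjusted p = 4.62e-11). DDIT4 rose in both, in knockout cells from the values given above and in control cells from 74.3, 67.6 and 72.9 to 309, 328 and 338, a difference of 2.14 (SE 0.13, edgeR adjusted p = 4.83e-10), and its level stayed below that of control cells in every knockout library of the same treatment. DNMT3B, a DNA methyltransferase, rose from 8.62, 8.22 and 7.33 to 15.9, 17.9 and 14.8 in knockout cells and fell from 25.9, 21.1 and 19.4 to 8.73, 9.41 and 10.8 in control cells, a difference of 2.20 (SE 0.19, edgeR adjusted p = 3.26e-08). KCNJ4, NRARP and SDC1 fell in both genotypes, and less in the knockout cells, with differences of 1.85, 1.69 and 1.65. HES6 (1.84) and CDC42EP3 (1.68) rose in knockout and fell in control cells, and ELK3 (1.67) fell in control cells and was not called in knockout cells. Against the knockdown cells, with the same knockout libraries, the 10 differences ran from 2.52 for ASB1 to 0.85 for NRARP.

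**Figure D5:**
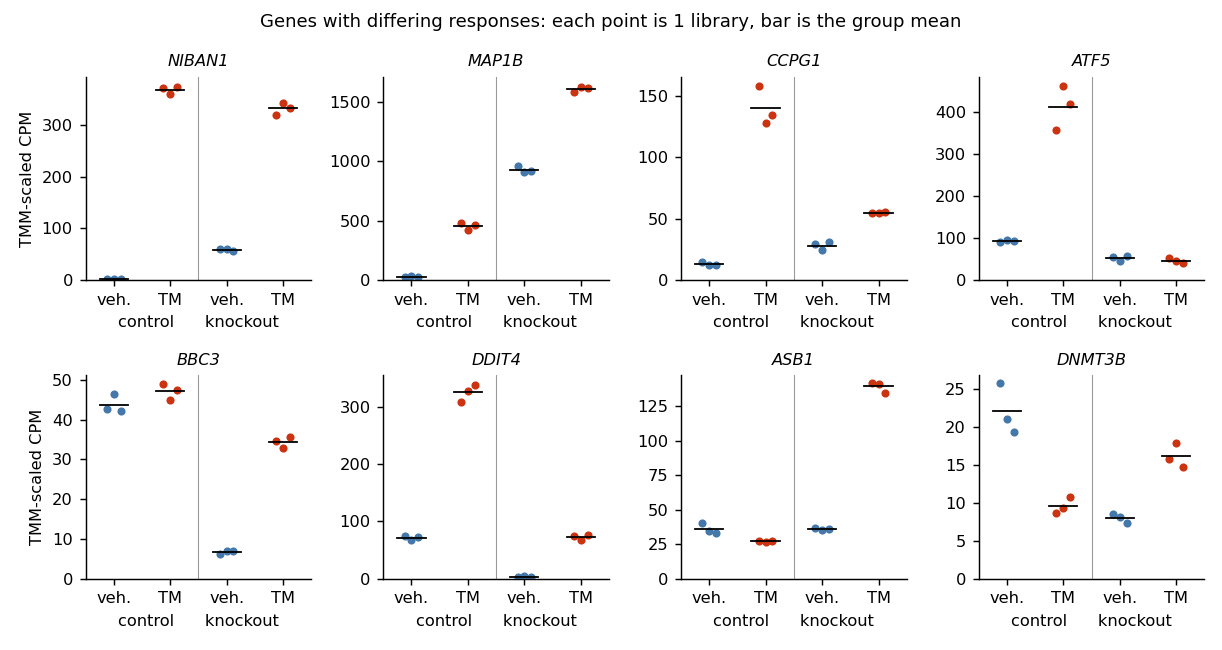
TMM-scaled CPM of 8 genes in control cells (left of each panel) and CARM1 knockout cells (right), with vehicle (veh.) in blue and tunicamycin (TM) in red, 1 point per library and the group mean as a bar. NIBAN1 and MAP1B start higher and BBC3 and DDIT4 lower with vehicle in knockout cells, ATF5 and DNMT3B also start lower there, and ASB1 starts at a like level in both.

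Of the genes tested in both, 189 rose in knockout and fell in control cells and 168 did the reverse. The difference was called in that direction for all of them, but it rests on the same libraries and is no separate check. Genes that moved in the 2 genotypes in opposite directions included the ER-bound factor CREB3L1, at -1.0045 in knockout and 0.75 in control cells, and EGR1, at 0.68 and -0.63. The cytosolic HSP70 relative HSPA4L fell by 0.96 in knockout cells and rose by 0.32 in control cells, a difference of -1.31 (SE 0.07, edgeR adjusted p = 7.06e-11). SPARC fell in knockout cells and gave -0.02 in control cells, where it was not called, a difference of -1.29 (SE 0.09, edgeR adjusted p = 1.11e-09). HMOX1 rose by 1.90 in control cells, a difference of -2.41 (SE 0.18, edgeR adjusted p = 4.23e-09). Among transporters, SLC7A3, a cationic amino acid transporter, had 2.09, 1.92 and 3.15 CPM with vehicle and 52.5, 51.1 and 47.5 with tunicamycin in control cells, and at most 1 count in any knockout library, so that no response could be measured there. GDF15, a stress-induced cytokine of low level in knockout cells and outside the rule for named genes, went from 0.311, 0.0839 and 0.229 CPM to 19.8, 15.9 and 15.7 in knockout and from 12.8, 15.1 and 14.7 to 134, 163 and 155 in control cells. ATF3, an early target of ATF4 and also named after its values were seen, went from 3.57, 5.2 and 3.55 to 22.1, 19.8 and 18.9 in knockout and from 0.387, 0.589 and 0.737 to 52.5, 53.6 and 52.1 in control cells, a difference of -4.18 (SE 0.27, edgeR adjusted p = 6.13e-10).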

How the data were processed

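Messenger RNA of A1847 cells was measured in 18 libraries of 3 genotypes, each with vehicle or tunicamycin and 3 replicates. The authors made 3′ mRNA libraries (Lexogen), sequenced 75 nt single reads, and used bowtie2 for alignment to hg19 and RSEM for expected counts of Ensembl genes. The deposited values are expected counts rounded to whole numbers and not normalised, for 57736 genes, and the authors tested group pairs with DESeq2. Groups were taken from the labels, and dose and time from the study's methods.

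Symbols and GRCh37 positions came from GENCODE release 44 mapped to GRCh37 (55501 genes matched), and promoter sequences from RefSeq in GRCh38.p14, whose coordinates are not comparable with GRCh37. Genes were kept by filterByExpr with a minimum count of 10 over the libraries compared, scaled by TMM and tested with edgeR 4.0.16 in R 4.3.3 (quasi-likelihood F test, Benjamini-Hochberg adjustment over all genes tested, false discovery rate 5%). Each standard error was taken as the size of the log2 fold change over the root of its F statistic. The CPM values shown are counts divided by TMM-scaled library sizes over 17317 genes. The edgeR fit was tried on simulated counts for the knockout response and for its difference from the control response. The other steps were not. With 3 against 3 libraries an exact permutation test cannot go below p = 0.1.

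The 33 gene lists (630 of 633 symbols matched) and the rule for named genes were chosen with earlier results of these data known, so no pattern is independent support. The rule named CARM1, XBP1 and genes that the study assayed, up to 4 highest and 2 lowest called members of each list (all members of lists of up to 13 genes), the 10 highest and 10 lowest responses of the knockout cells, and the 10 highest and 10 lowest differences from control cells, with means of at least 3 log2 CPM. Elements were searched as exact letters on both strands, and the C/EBP-ATF and UPR elements can overlap other motifs. Alternatives were DESeq2 1.42.0 and its size factors, library totals alone, other filters, 1 fit of all libraries, a replicate block, stricter thresholds and leaving out each library. TMM factors within each genotype were added after seeing the data. Genes in multigene families (HSPA1A and HSPA1B, ribosomal proteins) may share reads. The errors given rest on the spread between libraries. Values of some members of the lists are not reported here.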

Additional observations from a re-analysis of the deposited data

Results flagged for a closer look

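The results given here were singled out because the response to tunicamycin differed between knockout and control cells in a test of the difference itself. This held for 1873 genes above 0 and 2124 below, and since the knockout libraries stand apart from the control libraries, an effect of CARM1 and another difference between the cells cannot be told apart. All values are knockout minus control on the log2 scale, from edgeR at a false discovery rate of 5%.

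Among the genes that the study assayed, the difference was 0.68 for HSPA5, 0.75 for MYC, 0.4 for DDIT3, 0.37 for XBP1, 0.21 for CARM1 and -0.41 for DNAJC10. The one for CARM1 (edgeR adjusted p = 0.0487) was lost in 6 of 21 alternatives, with an adjusted p of up to 0.177, and CARM1 fell in control cells by 0.26. Among the highest responses of the knockout cells it was 2.14 for DDIT4, 1.07 for HERPUD1, 0.81 for SDF2L1, -0.84 for CHAC1 and -1.55 for SLC7A11, and among the lowest -2.25 for MAP1A, -1.36 for ID1, -1.18 for SOCS3, -1.04 for SKP2, -0.76 for MLLT11 and -0.39 for CD59.

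At means of 3 log2 CPM or more in both genotypes, the most positive differences, besides that of DDIT4, were 2.38 for ASB1, 2.27 for BBC3, 2.2 for DNMT3B, 1.85 for KCNJ4, 1.84 for HES6, 1.69 for NRARP, 1.68 for CDC42EP3, 1.67 for ELK3 and 1.65 for SDC1. The most negative, besides that of MAP1A, were -4.38 for NIBAN1, -3.03 for MAP1B, -2.56 for MBNL2, -2.39 for CCPG1, -2.33 for ATF5, -2.22 for AKNA, -2.12 for PRKCZ, -2.05 for LRP1 and -1.9 for ZFAND2A.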

How the results depend on the processing

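Requiring a change of at least 1.5-fold beside the false discovery rate of 5% left 1328 higher and 1063 lower genes in knockout cells, 1910 and 1685 in control cells, 1480 and 1372 in knockdown cells, and differences of the knockout from the control response of 900 above and 1044 below 0, and from the knockdown response of 701 and 852. At a false discovery rate of 1% the differences numbered 1149 above and 1395 below 0 against control, and 1070 and 1194 against knockdown. Leaving out 1 library gave 3136 to 3297 higher and 2937 to 3115 lower genes in knockout cells, 3250 to 3637 and 3042 to 3301 in control cells, 2908 to 3148 and 2881 to 3061 in knockdown cells, 1549 to 2323 and 1457 to 1977 differences from control, and 1422 to 1971 and 1395 to 1914 from knockdown. Which direction held more calls turned under some scalings, filters and omitted libraries, as given with each comparison. The other comparison counts, 174 in all, stayed within 1.5 times the main count. Replicates with the same number did not deviate together in knockout cells (correlations of -0.004, 0.005 and -0.006), and a replicate block left 3487 higher and 3264 lower genes there and differences from control of 1796 above and 2028 below 0. Of the responses of named genes, 105 values fell short of the threshold and 18 newly passed it under an alternative, and 3236 kept their call.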
